A study of Mus musculus with 4 samples.

Results

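The enzymes described here make serine from a glycolytic intermediate, pass its carbon to folate, and make asparagine from aspartate. They are 10 named genes of the 24421 in the gene count tables: Phgdh, Psat1, Psph, Shmt1, Shmt2, Mthfd2, Mthfd1l, Aldh1l2, Mthfd1 and Asns. They were found by symbol in the count tables and in the table of variant sites, where 826 of the 1205261 sites carry one of these symbols. RNA came from cultured lung endothelial cells (ECs) of 2 male C57/BL6 mice of 2 weeks, EC1 and EC2, from separate litters. The mice were of an inducible ADAR1 knockout (i-KO) model, which the labels call EC-specific. The authors keep i-KO apart from their EC-specific knockout made with Cdh5-Cre. One culture of each mouse received tamoxifen (TM), which switches on the Cre that removes the floxed part of the ADAR1 gene, and one was left non-induced (CON). This gave 4 libraries with n = 2 per group, paired by mouse. CON cells carry the same floxed alleles and inducible Cre as TM cells, and no TM-treated cells without the floxed alleles were analysed here, so an effect of TM itself and of the deletion cannot be told apart. The promoter of the inducible Cre is not given in the sources used here. Each library is bulk RNA of a culture, in which fewer cells of a type and less RNA per cell cannot be told apart.

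Serine is made from 3-phosphoglycerate in the cytosol in consecutive steps by Phgdh, Psat1 and Psph. The serine hydroxymethyltransferases Shmt1, in the cytosol, and Shmt2, in mitochondria, turn serine into glycine and load its side-chain carbon on tetrahydrofolate. In mitochondria Mthfd2 and Mthfd1l oxidise that unit to formate, which leaves for the cytosol, and Aldh1l2 burns it to carbon dioxide with gain of NADPH. Mthfd1 interconverts the same folates in the cytosol for purine and thymidylate synthesis. Asns transfers an amide group from glutamine to aspartate to give asparagine. Phgdh, Psat1, Shmt2, Mthfd2, Aldh1l2 and Asns are well-known targets of ATF4, the transcription factor of the integrated stress response, and in endothelial cells serine synthesis is known to serve nucleotide and haem synthesis.

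Read coverage in TM was higher at the start of serine synthesis, at the mitochondrial folate steps and at asparagine synthesis. Coverage of Asns, Shmt2, Mthfd1l and Psat1 rose, by 2.74, 1.88, 1.64 and 1.48 on the log2 scale, and that of the cytosolic Mthfd1 changed by 0.38 and did not pass the test. Phgdh and Aldh1l2, which had fewer than 3 listed exonic sites in at least 1 CON library, rose by 2.59 and 3.12 once such genes were admitted. Mthfd2 had no counts in either CON library and 14 and 30 counts in TM. The phosphatase Psph had no stable direction. The cytosolic Shmt1 rose by counts but could not be tested by depth over all libraries, and its depth fold in EC1 was 1.30. How far reads of Smcr8 on the opposite strand enter the Shmt1 count was not tested.

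The readouts of the libraries differ in depth. Between 1095488 and 1778732 counts per library lay on genes, 0.823% to 0.858% of all rows of the count tables. Another 92.8% to 93.9% were assigned to no gene in the counting. Whether those reads lay outside genes or on the other strand of genes was not tested, so a low count need not mean little RNA. A count of 0 allows up to 3 counts, or 1.69 to 2.74 CPM (counts scaled to library size), and this floor covers counting error only. The table of variant sites gives, for 354338 to 431151 positions per library, how many reads had the reference base and how many the altered one. Their sum is the read depth at that base without regard to strand. The median depth over a gene's listed exonic and UTR positions, scaled between libraries, is called exonic depth here. It is a level per base over the listed positions only, so comparisons between genes are rough where these are few. Positions are listed only where a variant base was called, so a gene with low depth has few of them, and they are mostly different positions in each library. Adar, the gene of ADAR1, was floxed over exons 12 to 15. In exons 12 to 14 it had 3 listed positions of median depth 145 in EC1 CON and none in EC1 TM, and 1 position of depth 169 in EC2 CON and 2 of median depth 65.5 in EC2 TM, while exons 1 to 11 had a median depth of 152.5, 664, 176 and 960. Exon 15, which holds the 3′ UTR and belongs to the stated floxed part, was deeper in TM, at 99, 422, 156 and 835 reads from 9, 17, 2 and 15 positions, so depth was low in TM in exons 12 to 14 and not in exon 15. Here and below, values by library are listed as CON then TM of EC1, followed by CON then TM of EC2.

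**Figure D1:**
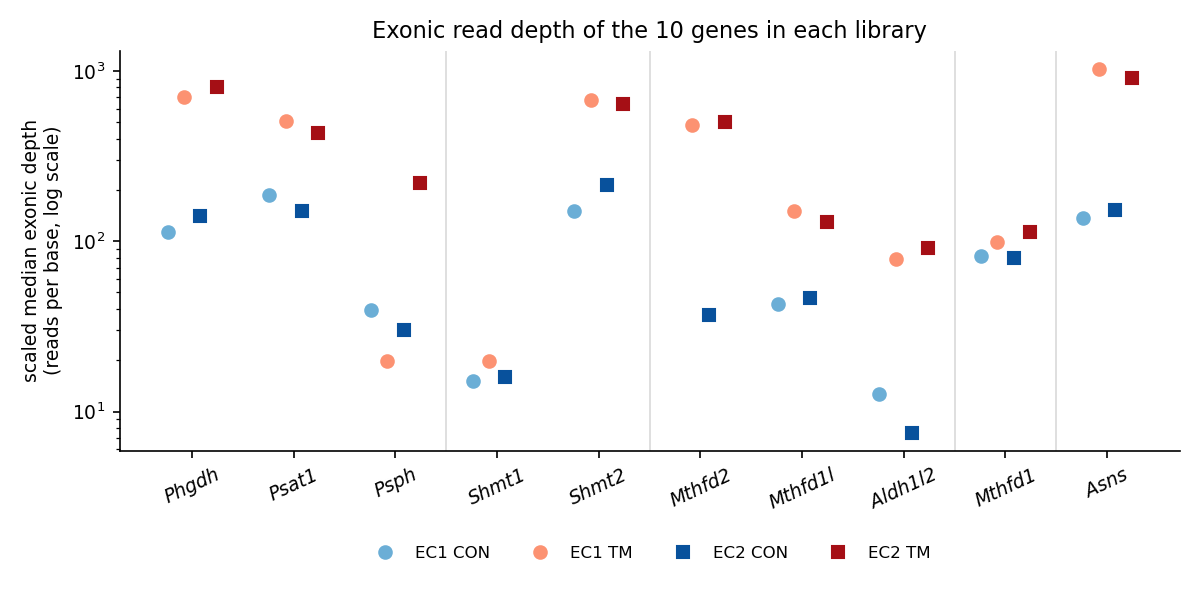
Exonic depth of the 10 genes (reads per base, scaled between libraries, log axis), 1 point per library, circles for EC1 and squares for EC2, blue for CON and red for TM, grouped by pathway step. The TM points of Phgdh, Psat1, Shmt2, Mthfd1l, Aldh1l2 and Asns lie well apart from the CON points, those of Mthfd1 lie close, and Shmt1 in EC2 TM and Mthfd2 in EC1 CON have no point because no position was listed.

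Asns, asparagine synthetase, had the deepest coverage of the 10 genes in TM. Its exonic depth was 137, 1027, 153 and 907 reads, from 4, 31, 6 and 43 listed positions. Both TM libraries were far above both CON libraries, and the mice lay close to each other within a group. The log2 change was 2.74 (standard error 0.14, adjusted p = 0.000154, limma). Positions listed in both libraries of a mouse compare the same base: at exonic position chr6:7682393 the reads went from 54 to 413 in EC1. At chr6:7680189 they went from 163 to 1497 in EC2, and at chr6:7675213 in the 3′ UTR from 141 to 1103. Scaled, these 3 matched positions gave log2 changes of 2.48 to 2.89, close to the value over all positions. Gene counts of Asns were low, at 1, 9, 3 and 29, and did not pass the filter on low counts. Their ratio of TM over CON was 9.15 in EC1 (exact 95% counting interval 1.27 to 401) and 6.03 in EC2 (1.87 to 30.9). Asns lies on the minus strand at chr6:7675169-7693254 of mm10 and shares no exonic base with a gene on the opposite strand.

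The start of Asns is where a known element for ATF4 and C/EBP factors lies, and the run is printed because the group holds many known ATF4 targets. RefSeq promoters (250 bases before to 50 after a start, GRCm38.p6) were matched for 9 of the 10 genes, all but Aldh1l2, as 10 windows, with 2 for Psat1. The motif TGATGNAAN was searched on both strands, and 1 of the 10 windows held it, against 3.95% of 32851 promoters. The window chr6:7693214-7693243, minus strand, written 5′ to 3′ with the motif in capitals, reads as follows.
Asns: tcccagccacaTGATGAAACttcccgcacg
The motif covers bases -23 to -15 from the RefSeq start. The E-box CACGTG, searched likewise, was in 0 of the 10 windows and in 7.15% of all promoters. A match of letters is a description only, and factor binding was not measured.

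Phgdh, which commits 3-phosphoglycerate to serine synthesis, had an exonic depth of 113, 707, 140 and 809 reads. The listed positions were 2, 22, 4 and 30, so that EC1 CON missed the limit of 3 positions per library. With 1 position per library, a setting added after seeing the data, the log2 change was 2.59 (standard error 0.17, adjusted p = 0.0011, limma). The fold of TM over CON was 6.24 in EC1 and 5.77 in EC2, the closest match between mice after Psat1. Counts of Phgdh were 4, 23, 2 and 57. TM lay above CON in both mice, by a ratio of 5.85 (2.00 to 23.3) in EC1 and 17.8 (4.70 to 150.3) in EC2. The count change was 3.27 on the log2 scale (standard error 0.63, adjusted p = 0.000638, edgeR), and without EC2 TM it was 2.88 with an adjusted p of 0.0637. No gene on the opposite strand shares an exonic base with Phgdh (chr3:98313170-98339990, minus strand). Its few intronic positions had an unscaled depth of 2, 17, 2 and 21 reads from 1, 9, 1 and 7 positions. The CON values lie near the lowest depth that a listed position can have.

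Psat1, the aminotransferase of the pathway's middle step, had an exonic depth of 187, 507, 151 and 433 reads. It rose by 1.48 on the log2 scale (standard error 0.17, adjusted p = 0.00355, limma), with 2.71-fold in EC1 and 2.87-fold in EC2. Its TM and CON libraries did not overlap, and its change was the most alike between mice of all 8 genes with a value in both. At the matched 3′ UTR position chr19:15905243 of EC1 the reads went from 149 to 491. At chr19:15907056 of EC2 they went from 146 to 581, and at chr19:15920986 from 273 to 874. Its counts, 4, 6, 3 and 13, did not pass the filter on low counts, and the intervals of their ratios, 1.53 (0.362 to 7.35) and 2.70 (0.743 to 14.8), include equality.

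Psph, the phosphatase that releases serine, gave no stable direction. Its exonic depth was 39.2, 19.7, 30.1 and 220 reads, from only 2, 1, 2 and 5 positions. EC1 TM was the lowest library and EC2 TM the highest, so the groups overlapped. The log2 change of 0.94 had a standard error of 1.07 (adjusted p = 0.595, limma, 1 position per library), and it was -0.79 without EC2 TM (adjusted p = 0.316) and 2.70 without EC1 TM (adjusted p = 0.0241). The only position listed in all libraries, chr5:129786963 in the 5′ UTR, had 29, 16, 31 and 40 reads, scaled log2 changes of -0.90 in EC1 and -0.12 in EC2. The other positions behind the EC2 TM median were not listed in EC2 CON. Counts were 187, 191, 302 and 378, a log2 change of -0.18 (standard error 0.30, adjusted p = 0.812, edgeR). Psph had 603, 1194, 944 and 116 counts per 100 reads of exonic depth. The median over genes with at least 3 listed positions was 6.95 to 10.2, and Psph had that many only in EC2 TM. Of its exonic bases 452 (10.4%) are shared with Cct6a on the opposite strand, whose exonic depth was 996, 941, 940 and 1107 reads and changed by 0.08 (adjusted p = 0.721). How far reads of Cct6a enter the Psph count was not tested.

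Of the serine hydroxymethyltransferases, Shmt2 was called by depth and Shmt1 by counts. Shmt2, the mitochondrial enzyme, had an exonic depth of 151, 674, 213 and 643 reads, and both TM libraries lay above both CON libraries. It rose by 1.88 on the log2 scale (standard error 0.19, adjusted p = 0.00208, limma), by 4.48-fold in EC1 and 3.02-fold in EC2. All 4 matched positions were deeper in TM, by 1.70 to 2.03 on the log2 scale, for example from 255 to 1220 reads at chr10:127519632 of EC2. Counts of Shmt2 were 5, 6, 8 and 20, too few for the test, with ratios of 1.22 (0.310 to 5.06) and 1.56 (0.658 to 4.09). The gene Ndufa4l2, which shares 32 exonic bases with Shmt2 on the opposite strand, had no listed exonic position in any library and counts of 8, 69, 4 and 91. Its count change was 3.37 on the log2 scale (adjusted p = 1.0e-05, edgeR). The kit used marks strand, the strand setting of the counting was the tool's default, and whether counts were taken from the strand of the gene was not tested.

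Shmt1, the cytosolic enzyme, had counts of 75, 158, 59 and 258. They rose by 1.26 on the log2 scale (standard error 0.32, adjusted p = 0.00897, edgeR), with ratios of 2.14 (1.62 to 2.86) and 2.73 (2.05 to 3.68). Its exonic depth was the lowest after Aldh1l2 in CON, at 15.2, 19.7 and 16 reads from 1, 2 and 1 positions in the first 3 libraries. EC2 TM had no listed position, so depth could not be tested over all libraries. In the fit without EC2 TM, at 1 position per library and with 1 TM library left, the log2 change was 0.35. In EC1, where both libraries had a value, the depth fold was 1.30. Shmt1 thus had 625, 988 and 347 counts per 100 reads of exonic depth. In these libraries the 95th percentile over genes with at least 3 listed positions was 477, 444 and 337. It shares 184 exonic bases (4.74%) with Smcr8 on the opposite strand, whose exonic depth was 70.9, 148, 80.9 and 142 reads and rose by 0.94 (adjusted p = 0.0189, limma). The Shmt1 count and the Smcr8 depth were both higher in TM in both mice, and how far reads of Smcr8 enter the Shmt1 count was not tested. Without EC2 CON the Shmt1 change was 1.12 with an adjusted p of 0.132.

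Of the mitochondrial folate genes, Mthfd2, the dehydrogenase and cyclohydrolase, was the one with no count in CON. Its counts were 0, 14, 0 and 30. Set against the floor of 3 counts in each CON library, the TM count was 4.75-fold higher in EC1 and 6.24-fold higher in EC2. These folds leave out the counting error of TM. The fitted log2 change over all libraries was 7.26 (standard error 1.32, adjusted p = 0.000359, edgeR). Exonic depth was 480 reads in EC1 TM from 21 positions, with no position listed in EC1 CON. In EC2 it was 36.7 reads in CON, from 1 position, and 504 in TM, from 20, a fold of 13.7. TM values of the mice were nearly equal, and depth could not be tested over all libraries because of the missing CON value. In the fit without EC1 CON, at 1 position per library and with 1 CON library left, the log2 change was 3.74.

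Mthfd1l, the mitochondrial formate-releasing enzyme, had an exonic depth of 43.0, 150, 46.1 and 129 reads. It rose by 1.64 on the log2 scale (standard error 0.20, adjusted p = 0.00388, limma), and the groups did not overlap. At the matched exonic position chr10:4106444 of EC2 the reads went from 54 to 220. Its counts of 29, 35, 22 and 69 changed by 0.63 (standard error 0.40, adjusted p = 0.404, edgeR), so the rise was seen in depth and did not pass in counts.

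Aldh1l2, which oxidises formyl-tetrahydrofolate in mitochondria, was the least covered gene in CON. Its exonic depth was 12.7, 78.7, 7.53 and 91.1 reads, from 2, 7, 2 and 16 positions. The TM libraries were alike and far above CON, and the log2 change was 3.12 (standard error 0.38, adjusted p = 0.00808, limma, 1 position per library). Without EC2 TM it was 3.02 with an adjusted p of 0.0513. Counts were 18, 41, 13 and 32, a change of 0.95 that did not pass (standard error 0.48, adjusted p = 0.262, edgeR). It shares 1056 exonic bases (14.1%) with D10Wsu102e on the opposite strand, whose exonic depth changed by 0.47 (adjusted p = 0.222, limma).

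Mthfd1, the cytosolic enzyme with several folate activities, stayed close to CON. Its exonic depth was 82.3, 98.4, 80.0 and 113 reads, and the log2 change of 0.38 did not pass (standard error 0.19, adjusted p = 0.211, limma). TM was above CON by a log2 of 0.26 in EC1 and 0.49 in EC2, or 1.2-fold and 1.41-fold, less than in any other gene with a value in both mice and a rise in both. At the position listed in all libraries, chr12:76270493, the reads were 65, 62, 78 and 129, scaled log2 changes of -0.11 and 0.24. Counts of 19, 14, 6 and 20 changed by 0.09 (adjusted p = 0.956, edgeR), with a ratio under 1 in EC1 and over 1 in EC2.

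**Figure D2:**
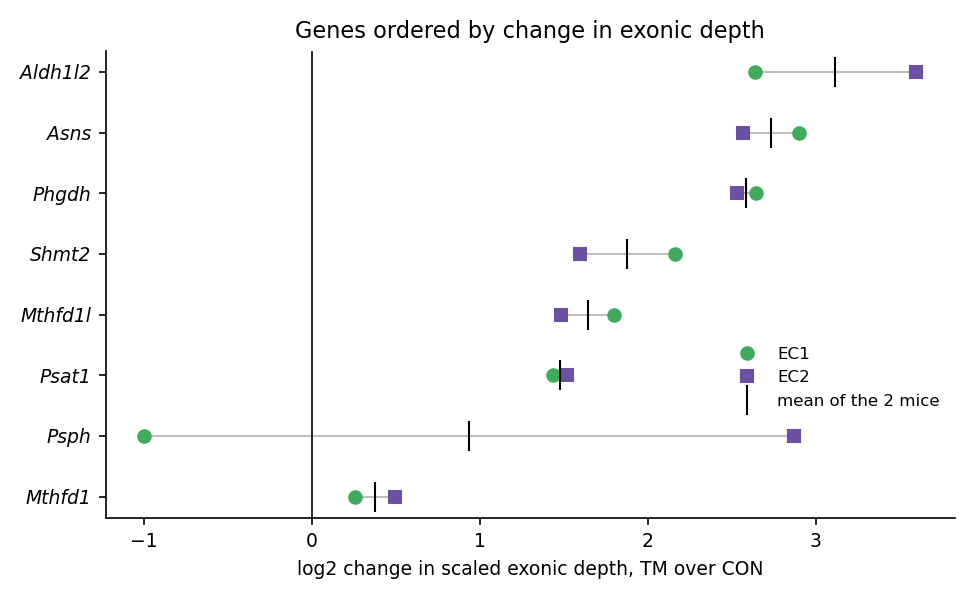
Log2 change in scaled exonic depth, TM over CON, for the 8 genes with a listed position in every library, ordered by the mean of the 2 mice (black tick), with EC1 as a green circle and EC2 as a purple square. The order runs from Aldh1l2 at 3.12 to Mthfd1 at 0.38, and Psph spans -0.995 to 2.87.

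Ordered by the mean change in exonic depth, the steps ran Aldh1l2 (3.12 ± 0.68, SD over 2 mice), Asns (2.74 ± 0.24), Phgdh (2.59 ± 0.081), Shmt2 (1.88 ± 0.40), Mthfd1l (1.64 ± 0.22), Psat1 (1.48 ± 0.060), Psph (0.94 ± 2.73) and Mthfd1 (0.38 ± 0.17). The ranges of the 2 mice overlapped between all neighbours in this order except Phgdh and Shmt2, whose ranges were separate. Within serine synthesis, the order was Phgdh above Psat1, with Psph undetermined. Within mitochondrial folate, Aldh1l2 lay above Mthfd1l, and Mthfd2, with its single CON position, was not placed. At 1 position or more per library, 7 of the 8 genes had both TM libraries above both CON libraries, which held for 30.0% of 9788 genes.

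Across the tested genes, 4 of the 5 members with at least 3 listed positions per library rose in exonic depth and none fell, beside 9.76% of 6836 genes called higher (667 higher and 687 lower, 19.8% in all). The median log2 change was 1.64 over those 5 members and 0.0069 over all genes tested. With 1 position per library, 6 of 8 members rose, beside 6.55% of 9788 genes. By counts, 7 members were tested and 3 rose, beside 4.39% of 7899 genes (347 higher and 265 lower, the latter 3.35%, and 7.75% in all). These were Phgdh, Shmt1 and Mthfd2. Phgdh and Mthfd2 passed the filter on low counts only through the TM libraries in which they were high, so the 3 of 7 is no test against the share over all genes. The median over the 7 was 0.95. Under a replicate block by mouse edgeR called 1184 genes in place of 612, and the same 3 members. DESeq2 called 3 members without the block and 2 with it, since the block left Mthfd2 without an adjusted p (unadjusted p = 0.106). Both TM libraries lay above both CON libraries in CPM for 7 of the 10 members, beside 19.9% of 17237 genes. Because entry to the count test depended on the TM values for Phgdh and Mthfd2, these counts describe the members tested and not all 10.

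**Figure D3:**
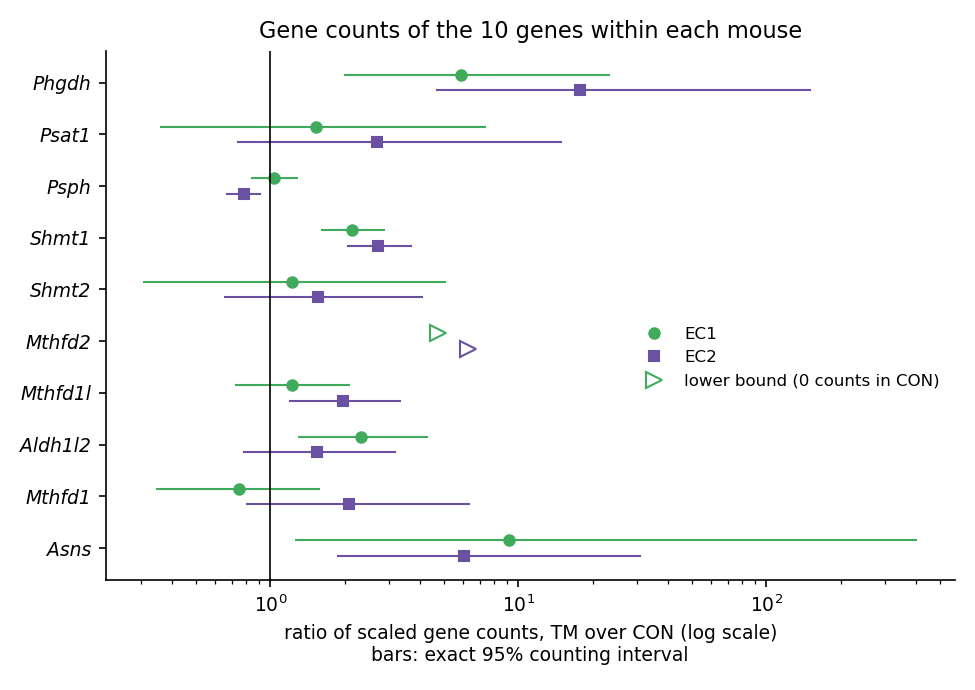
Ratio of scaled gene counts of TM over CON within each mouse (log axis), with exact 95% counting intervals, EC1 in green and EC2 in purple. Intervals of Phgdh, Shmt1 and Asns lie above 1 in both mice, Mthfd2 is drawn as a lower bound of 4.75 and 6.24, and those of Psat1 and Shmt2 cross 1.

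**Figure D4:**
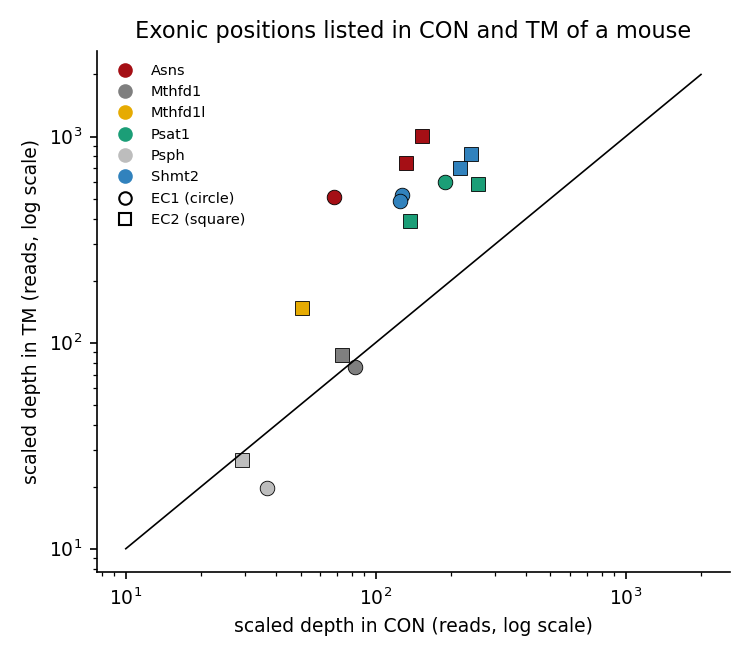
Scaled read depth in CON (x) and TM (y) at the 15 exonic and UTR positions listed in both libraries of a mouse (log axes), circles for EC1, squares for EC2, with the line of equal depth. The 11 points of Asns, Shmt2, Psat1 and Mthfd1l lie above the line, and those of Mthfd1 and Psph lie on or near it or below.

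Introns were read too, because the libraries were depleted of ribosomal RNA and not selected for poly(A). Intronic depth, given here before scaling, was 1, 13.5, 2 and 14 reads for Asns and rose by 3.16 on the log2 scale (standard error 0.52, adjusted p = 0.0388, limma). That of Shmt2 was 9, 48, 10 and 47 reads and rose by 2.21 (standard error 0.37, adjusted p = 0.0415). These were 2 of the 5 members tested, beside 0.74% of 5539 genes called higher, 0.0903% called lower and 0.83% in all. Both had TM above CON in both mice, at a depth far below their exons. A listed position has at least 1 read, so the CON values of 1 and 2 reads for Asns lie at or near the lowest possible value. The size of its intronic change is therefore rough. Intronic depth of Psat1 was 2.5, 10.5, 3 and 13 reads, a change of 1.98 with an adjusted p of 0.0978, and an adjusted p of 0.0408 under a replicate block by mouse, where 102 genes were called in place of 46. Without EC2 TM none of 5757 genes passed, 392 had an unadjusted p under 0.05, and Asns and Shmt2 changed by 3.23 and 2.32 (adjusted p = 0.695 for each, limma). Mthfd1l and Mthfd1 changed by 1.34 and 0.67 and did not pass (adjusted p = 0.269 and 0.643).

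In exonic depth, the tested genes around these steps moved less than the members that passed, which did not hold for counts. Of 5 other serine and glycine genes tested in exonic depth, Sfxn2, a homologue of the mitochondrial serine carrier, rose by 1.05, Srr, which makes D-serine, rose by 0.69, and none fell. Of 3 other folate genes Ggh, which trims folate polyglutamates, fell by 0.79, and by counts Slc19a1, the reduced folate carrier, fell by 1.95. Of 5 genes of the methionine cycle Mtrr, which reactivates methionine synthase, rose by 0.89. None of 10 purine synthesis genes passed in exonic depth (median -0.02), and by counts Ppat, the first enzyme of that pathway, rose by 1.25 while its exonic depth did not pass. None of 6 glycolytic genes around 3-phosphoglycerate passed in either readout (median -0.12 in depth and -0.02 in counts).

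Among 7 genes of aspartate, glutamate and proline metabolism, Aldh18a1, which starts proline synthesis from glutamate, rose by 1.10, Ass1, which consumes aspartate, rose by 0.56, and Glud1, glutamate dehydrogenase, fell by 0.80 in exonic depth. Of the integrated stress response regulators, 8 of 11 tested rose in exonic depth (median 1.61), among them Nupr1 by 2.85, Atf5 by 2.62, Trib3 by 2.47, Ppp1r15a by 2.17 and Atf4 by 1.82. Exonic depth of Atf4 was 699, 2374, 650 and 2384 reads, and its change lay between those of Shmt2 and Mthfd1l. By counts 5 of 13 of these regulators rose (Chac1, Nupr1, Trib3, Ddit3 and Cebpb, median 1.19).

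**Figure D5:**
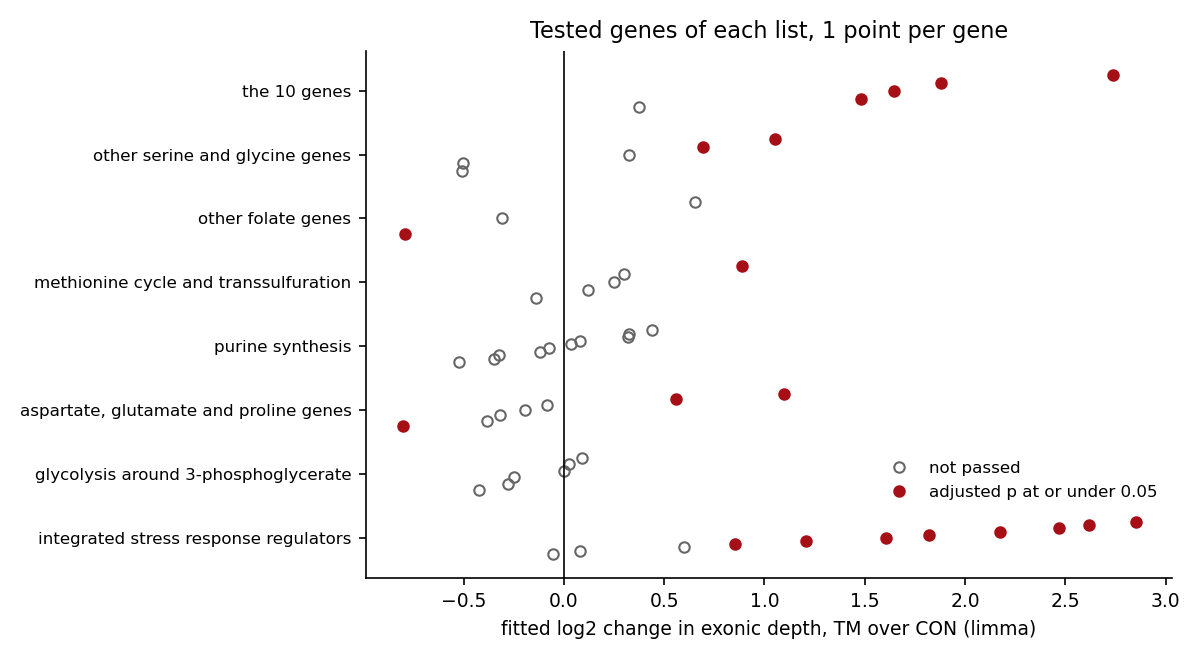
Fitted log2 change in exonic depth, TM over CON, 1 point per tested gene of each list, filled red at an adjusted p at or under 0.05 and open otherwise. The members (0.38 to 2.74) and the integrated stress response regulators lie mostly to the right of 0, and the 6 glycolytic and 10 purine genes spread around it with no filled point.

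Markers of the cell type moved in part. All 10 endothelial markers had exonic positions, their summed exonic depth was 37870, 32581, 37952 and 30996 reads, and 4 of 10 fell (Erg by 0.72, Tie1 by 0.70, Icam2 by 0.67 and Pecam1 by 0.66). Summed exonic depth of 9 fibroblast and smooth muscle markers was 974, 332, 1224 and 444 reads, lower in both TM libraries, with none of 1 tested gene passing. A marker with no listed position in a library added nothing to that sum. Acta2, for example, had 158 reads in EC1 CON and no listed position in EC1 TM, with counts of 33 and 43. The 8 leukocyte markers summed to 33.8 to 62.0 reads and the 6 epithelial markers to 41.4 to 59.5, with Ptprc at 1, 1, 0 and 0 counts Lyz2, Cd3e and Adgre1 at 0 or 1, and Csf1r at 50 to 63. Of the proliferation genes, 1 of 4 tested fell, Mki67 by 0.95. The part of these shifts in the values of the 10 genes was not tested.

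Editing was read at the same positions. Of the 826 listed sites of these genes, 22 passed in some library the criteria used by the authors (5 or more reads, 3 or more of them altered, and a rate between 0.05 and 0.95), which is 2.66%, against 2.01% of all sites. Mthfd1l held 17 of them, all intronic, while Phgdh and Asns held 2 each and Psph 1. In exons and UTRs 1 of 369 listed sites passed, 0.271%, against 0.619% over all genes, and 81.6% to 89.1% of the listed exonic positions per library rested on a single altered read.

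Several Mthfd1l sites lay in DNA repeats of its introns. At chr10:4033565, in a URR1A repeat, 2 of 3 reads were altered in EC1 CON, 1 of 4 in EC1 TM, 1 of 1 in EC2 CON and 5 of 9 in EC2 TM. At chr10:4023388, in an RCHARR1 repeat, these were 1 of 2, 2 of 4, 3 of 3 and 3 of 5. Few reads covered either site in any library. At the intronic Asns site chr6:7682460 the altered reads were 1 of 1, 12 of 14, 1 of 1 and 5 of 6, so the TM libraries were both above 0.8 and CON was covered by single reads.

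The Psph site chr5:129786963, in the 5′ UTR, was altered in 29 of 29 and 16 of 16 reads of EC1, and in 16 of 31 and 27 of 40 reads of EC2. The mice differed at this site more than CON and TM did. Between CON and TM, 8 member sites could be tested in EC1 and 10 in EC2 by Fisher's exact test (two-sided, adjusted over all sites of the mouse). None was called, none had an unadjusted p under 0.05 (smallest 0.0801), and the test called 0.747% of 11912 sites in EC1 and 1.83% of 12864 in EC2.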

How the data were processed

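RNA of 4 libraries was sequenced after ribosomal depletion (KAPA RNA HyperPrep with RiboErase). Per the labels, the authors trimmed with Trimmomatic 0.38, aligned to mm10 with STAR 2.6.1a and counted genes with HTSeq 0.11.2, and deposited raw counts without normalization. The authors called variants with BCFtools mpileup and deposited, per site and library, counts of reference and altered reads and their editing rate (a fraction, 0 where a site is not listed). Columns of that table were matched to libraries through a labelled table, with equal values at 1998 of 1998 sites. Rows that name no gene were excluded. Gene positions came from GENCODE vM21.

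Counts were tested with edgeR 4.0.16 (filterByExpr, TMM, quasi-likelihood, condition only) in R 4.3.3. Exonic and intronic depth, at 3 or more listed sites per library, was scaled by the median ratio to the gene's geometric mean and tested on its log2 with limma 3.58.1 (trend, pseudocount 0). Both used Benjamini-Hochberg adjustment over all genes, at 0.05. CPM and count ratios use TMM sizes. Alternatives were DESeq2 1.42.0 and its size factors, no count filter, replicate blocks, mean depth, a pseudocount of 5, scaling by total depth, 1 or 10 sites, shared sites, stricter editing criteria, and each library left out. The CON and TM libraries of a number come from the same mouse, and deviations from group means correlated within mice at r = 0.146 over 7899 genes (counts) and 0.100 over 6836 (depth). On simulated data with 200 genes changed 4-fold, edgeR recovered 171 (7 false calls), DESeq2 148 (2) and limma 198 (21). Other steps used Python 3.11.15 with scipy 1.17.1, pandas 2.3.3 and numpy 2.4.6. All 10 members are named, and of other listed genes at most the 5 largest passing changes per list and readout. Members and lists were chosen with earlier results of these data known. Protein sequences were not used here. A result for a listed gene is not reported here.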

Additional observations from a re-analysis of the deposited data

Results flagged for a closer look

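Psph values of the 2 mice lay on opposite sides of equality in both readouts. Its log2 change in exonic depth was -0.995 in EC1 and 2.87 in EC2, on 1 to 5 listed positions per library, and its count ratio of TM over CON was 1.04 in EC1 (exact 95% counting interval 0.845 to 1.28, which includes equality) and 0.781 in EC2 (0.669 to 0.911). At the only position listed in all libraries, scaled depth was lower in TM in both mice, by log2 changes of -0.90 and -0.12, so the value of 2.87 rests on other positions. The differences between mice were not tested.

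The count ratio of Mthfd1 was 0.749 in EC1 and 2.08 in EC2, from 19, 14, 6 and 20 counts, and this difference was not tested either. Its exonic depth was above CON in both mice.

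Sites annotated to Phgdh as 5′ distal, which lie outside the exonic, intronic and count comparisons, were deeper in TM. Of 59 such sites between chr3:98375434 and 98389808, 15, 20, 8 and 31 were listed per library, with a median depth of 10, 26, 9 and 23 reads. The mean log2 change of the scaled depth was 1.10. GENCODE places Zfp697 on the plus strand in the same stretch, and the exonic depth of Zfp697 rose by 1.08 (adjusted p = 0.0155, limma).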

How the results depend on the processing

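Over the 10 genes, 161 values under the alternatives kept their direction and side of the threshold, 5 newly passed (intronic Psat1 under 4 alternatives, and Psph depth without EC1 TM, at 2.70), 6 no longer passed and 3 reversed. Reversed were Psph and Mthfd1 counts without EC2 CON, at 0.22 and -0.50 (ranges over the libraries left out, -0.52 to 0.22 and -0.50 to 1.10), and Psph depth at 1 site without EC2 TM, at -0.79 (range to 2.70). No longer passing were Phgdh (2.88, without EC2 TM) and Shmt1 (1.12, without EC2 CON) by counts, Mthfd1l depth at 1 site (1.55, adjusted p = 0.0614, without EC1 TM), Aldh1l2 depth at 1 site (3.02, adjusted p = 0.0513, without EC2 TM), and intronic Shmt2 and Asns (2.32 and 3.23, without EC2 TM). Genes called by counts were 363 under DESeq2, 399 with a replicate block in DESeq2, 1184 with one in edgeR, and 436 to 574 with a library left out, with 1 to 3 members higher. The lowest of these, 436 genes and 1 member, came without EC2 TM. Exonic depth called 157 of 621 genes at sites listed in all 4 libraries, where no member could be tested, as with 10 sites, and 890 to 1101 genes, with 4 to 5 members higher, with a library left out. At 1 site, added after seeing the data, these were 576, 611, 737 and 829 genes and 5 to 7 members. Intronic depth called 102 genes with the replicate block, and 0 to 231, with 0 to 3 members higher, with a library left out. The replicate block in edgeR and limma changed no other member's call than that of intronic Psat1, and in DESeq2 it left Mthfd2 without an adjusted p and called 2 members in place of 3. The causes were not tested, apart from fewer genes or libraries in the fit. With n = 2 per group and under 100 counts for most of the 10 genes, counts limit what can be called.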
